A study of Sus scrofa with 12 samples.

Results

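DES, SPEG, GMPPA and BCS1L lie on pig chromosome 15, and they were described here as 1 locus through the chromatin loops at their ends and the RNAs found on their chromatin. They were chosen by name and position, and are 4 of the 28210 genes in the RefSeq table of the Sscrofa11.1 assembly. A loop was counted for a gene when 1 of its anchors lay no more than 1 kb from an end of the gene. The RNAs of the locus were those listed under a member's name, those overlapping a member, and those on DNA bins within 5 kb of a member's ends. The samples were longissimus muscle, the long muscle of the back, of 2-week-old male piglets of Large White (LW), a lean commercial breed, and Meishan (MS), a local Chinese breed, with no treatment. H3K27ac BL-HiChIP, which maps contacts of chromatin that carries the acetylation mark of active promoters and enhancers, gave 2 libraries per breed. GRID-seq, which ligates RNAs to the DNA they sit on, gave another 2 libraries per breed, each sequenced as an RNA end and a DNA end. Whether the 2 libraries of a breed came from different animals is not clear from the sources used here, so p-values measure only the spread between these libraries, which may be technical, and breed cannot be told apart from the few animals that stand for it.

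DES encodes desmin, the intermediate filament protein that ties the Z-discs of neighbouring myofibrils to each other and to the cell membrane. SPEG encodes a kinase of the myosin light chain kinase family that sits at the triads, where the membrane system that releases calcium meets the myofibrils. GMPPA encodes a regulatory partner of the enzyme that makes GDP-mannose, the sugar donor for glycoproteins such as dystroglycan, and BCS1L encodes a mitochondrial chaperone that inserts the iron-sulphur protein into respiratory complex III. Loss of any of these genes in people causes inherited disease, which for DES and SPEG is mainly a disease of muscle.

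The genes fall into a tight group of 3 and a distant member. DES spans chr15:121428539-121435426 (6.89 kb), SPEG spans chr15:121443976-121501453 (57.5 kb) and GMPPA spans chr15:121507560-121515299 (7.74 kb). The gap from the end of DES to the start of SPEG is 8.55 kb, and that from the end of SPEG to the start of GMPPA is 6.11 kb. BCS1L, at chr15:120707770-120711794 (4.03 kb), ends 717 kb before DES. In all, 38 genes lie between the start of BCS1L and the end of GMPPA, a span of 808 kb, and 24 of them had a loop at an end in at least 1 library. Start and end are used here for the lower and the higher coordinate, since the gene table gives no strand. The RNAs listed at DES and SPEG are on the plus strand, so for these genes the start is also the 5′ end.

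The whole lists set the scale for these values. The BL-HiChIP lists held 57028 and 43282 loops in LW against 45061 and 33353 in MS, each between 2 bins of 5 kb and with a false discovery rate (FDR) under 0.01. The GRID-seq lists named 571 and 681 RNAs in LW versus 519 and 649 in MS, with 8181721 and 9943666 RNA reads in LW against 7172517 and 9381797 in MS. The smallest RNA listed had between 432 and 455 reads, so an RNA that is missing from a list is not shown to be absent. Of 10 skeletal muscle markers, 6 were listed in at least 1 library, among them TTN, NEB, ACTA1 and CKM. Of 4 fibroblast markers, COL1A1 and COL1A2 were listed in every library, with 5711 and 5793 reads together in LW versus 6618 and 7710 in MS. No marker of fat, endothelium, blood or Schwann cells was listed, which at this depth does not show that such cells were absent. In such bulk samples, fewer cells of a type and less RNA or acetylation per cell cannot be told apart.

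DES, the gene of the main muscle intermediate filament, had the highest mean loop score of the 38 genes of the locus and stood at percentile 96.7 of the genes with a loop anywhere in the genome. The loop score is the sum of −log10 FDR over a gene's loops, so it grows with both the number and the certainty of the loops. DES showed 5 and 9 loops in LW, against 4 and 9 in MS. Its loop score was 35.9 and 97.3 in LW against 39.2 and 141 in MS. The replicate 2 library of each breed was therefore the high one, the breeds overlapped, and the libraries of 1 breed differed by more than the breed means did. The top rank of DES rested on the replicate 2 libraries. In the replicate 1 libraries other genes of the locus stood above it, among them SPEG (65.1 in LW and 40.6 in MS). With limma and Benjamini-Hochberg adjustment over 15431 genes, the LW minus MS difference of DES on the log2(score + 1) scale was −0.53 (SE 0.91, adjusted p = 0.994). At this adjusted threshold none of the 15431 genes was called (percent called 0), and 822 genes (5.33%) had an unadjusted p under 0.05.

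The 15 different loops of DES were dominated by 1 short contact. It joined the bin at the start of DES (chr15:121425001-121430000) to the bin at chr15:121415001-121420000, centred 10 kb away, and was found in all 4 libraries. Its −log10 FDR was 21.1 and 52.3 in LW versus 31.6 and 100 in MS, again with replicate 2 above replicate 1 in each breed. It made up 58.8% and 53.7% of the loop score of DES in LW against 80.6% and 71.0% in MS. The only other DES loop in all 4 libraries ran 55 kb into the body of SPEG, to chr15:121480001-121485000. That loop had a −log10 FDR of 2.79 and 8.17 in LW versus 2.08 and 5.19 in MS.

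The remaining DES loops pointed mostly past its end, which held for 12 of the 15. A 75-kb loop from the start of DES reached the end of SPEG, with values of 3.04 and 3.64 in LW against 4.90 in MS replicate 2, and was not called in MS replicate 1. A 90-kb loop to the end of GMPPA, at a bin shared with the ion channel gene ASIC4, was called in both LW libraries (3.14 and 4.56) and in no MS library. MS replicate 1 called an 80-kb loop to that same bin from the end of DES (2.36). The share of all loops called in both LW libraries and no MS library was not worked out. Each LW list was longer than the MS list of the same replicate number, but LW replicate 2 had fewer loops than MS replicate 1. No DES loop was called in both MS libraries and in no LW library. A 125-kb loop to the bin holding ends of CHPF, a chondroitin-polymerizing factor, and TMEM198, a membrane protein gene, was called in both replicate 2 libraries and in neither replicate 1 library (8.13 in LW versus 6.69 in MS). The longest DES loop, of 1070 kb, likewise appeared only in the replicate 2 libraries (3.21 in LW against 2.38 in MS), and no gene end lay on its far bin. A 5-kb loop inside DES was called in LW replicate 1 (5.83) and MS replicate 2 (2.35). Counting the 80-kb loop, 8 loops were each called in 1 library.

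Of the loops of DES, 6 were called in both breeds, out of 10 for LW and 11 for MS, which is 60.0% of the LW loops and 54.5% of the MS loops. When both anchors were allowed to lie 1 bin away, 8 of the 10 LW loops had an MS partner and 9 of the 11 MS loops an LW partner. The share of all loops in the genome that both breeds called was not worked out. These shares, and those of the other genes below, are therefore not shown to be particular to any gene.

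**Figure D1:**
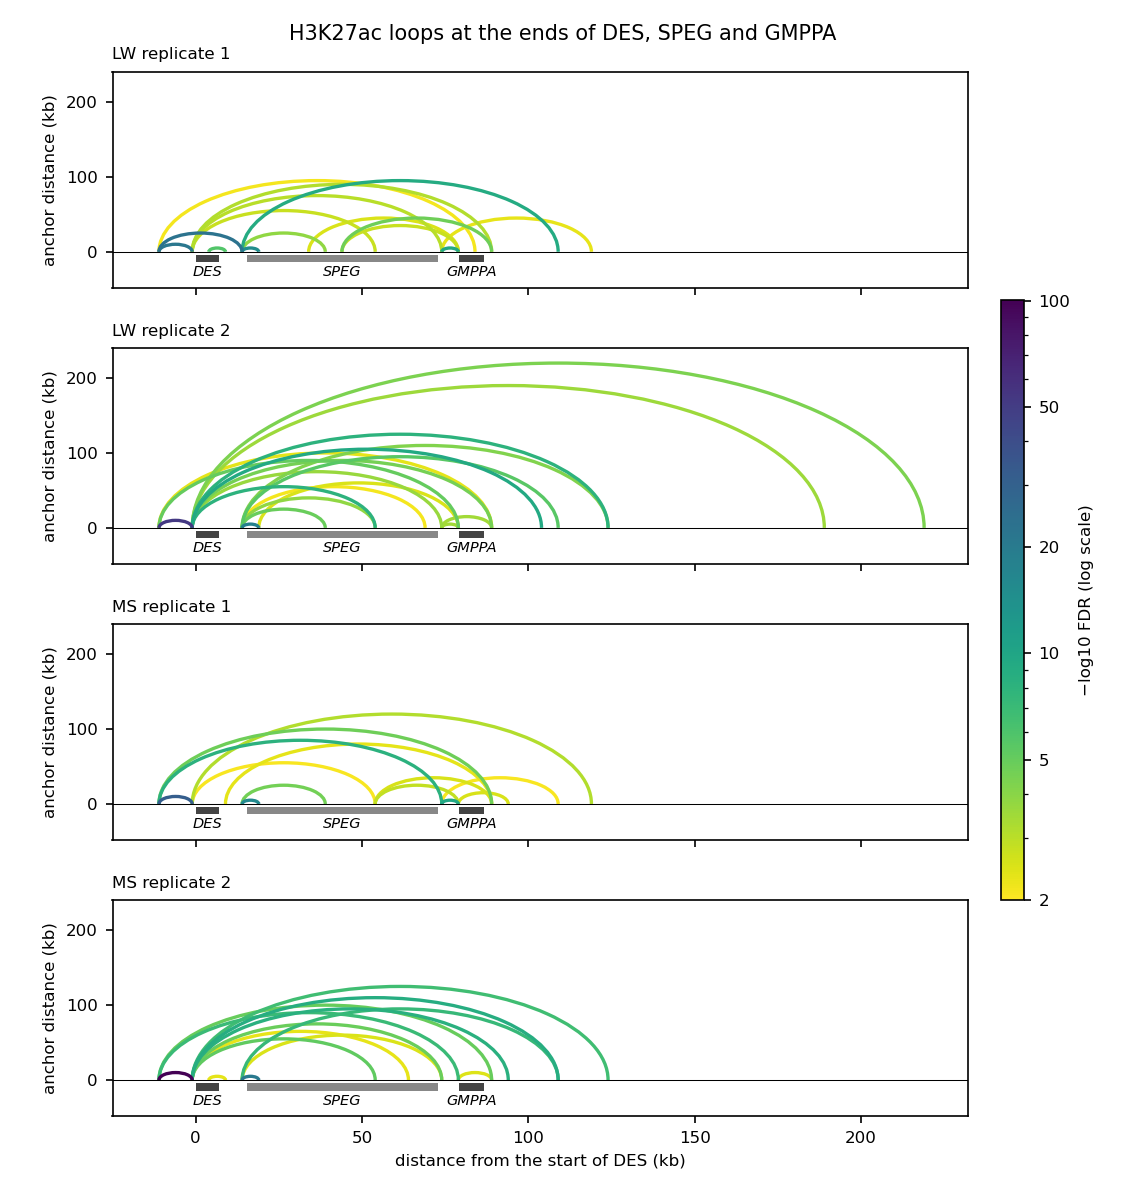
Loops at the ends of DES, SPEG and GMPPA in the 4 BL-HiChIP libraries, 1 panel each; x is the distance from the start of DES in kb, arc height marks the distance between the anchors in kb, colour gives −log10 FDR on a log scale and the bars are the gene bodies. The dark short arc before DES is in all 4 panels, with −log10 FDR from 21.1 to 100; the 1070-kb loop of DES is not drawn.

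SPEG, the triad kinase gene, had 7 and 9 loops in LW against 5 and 4 in MS. Its loop score was 65.1 and 49.3 in LW versus 40.6 and 35.5 in MS. Both LW libraries thus lay above both MS libraries, as they did for 21.1% of the 15431 genes tested. The limma difference was 0.36 on the log2(score + 1) scale (SE 0.77, adjusted p = 1.00 with Benjamini-Hochberg adjustment), and an exact permutation test of 2 libraries against 2 cannot give a two-sided p under 0.333. On the quantile-normalized scale used in that fit the order of the libraries changed, with 6.10 and 5.48 in LW against 5.61 and 5.26 in MS, so that the breeds overlapped.

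Most of the score of SPEG came from loops at its start. A 5-kb loop from the bin of its start into the gene was found in all 4 libraries, at 14.7 and 18.2 in LW versus 16.0 and 20.8 in MS. This loop made up 58.5% of the score in MS replicate 2, and it was the strongest SPEG loop in each library except LW replicate 1. In LW replicate 1 the strongest was a 25-kb loop from the start of SPEG back to the bin at chr15:121415001-121420000 (22.4), the same bin that looped to DES, and this loop was called in no other library. A second 25-kb loop, from the start of SPEG into its own body, was called in both LW libraries (3.81 and 4.87) and in MS replicate 1 (4.60). A 95-kb loop beyond the end of GMPPA, to a bin with no gene end, had values of 9.20 and 5.51 in LW against 7.34 in MS replicate 2.

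SPEG had 14 different loops over the 4 libraries, of which 5 were called in both breeds. These were 45.5% of its 11 LW loops and 62.5% of its 8 MS loops. With 1 bin of tolerance, 6 of the LW loops had an MS partner and 6 of the MS loops an LW partner.

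GMPPA, the GDP-mannose pathway gene, had 6 loops in each LW library and 6 and 3 in MS. Its loop score was 25.0 and 21.3 in LW versus 24.7 and 14.5 in MS. The breeds overlapped, with MS replicate 2 the low library. The limma difference was −0.06 on the log2(score + 1) scale (SE 0.77, adjusted p = 1.00 with Benjamini-Hochberg adjustment).

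The loops of GMPPA ran back over its neighbours: 13 of its 15 different loops had their far anchor before the start of the gene. The loop nearest to the gene was a 5-kb loop to the bin of the end of SPEG, at 9.61 and 3.45 in LW against 9.72 in MS replicate 1, and it was not called in MS replicate 2. The bins of this loop also hold the ends of LOC102159110, a protein-coding gene between SPEG and GMPPA, so its loops and those of GMPPA share anchors. A 100-kb loop from the end of GMPPA to chr15:121415001-121420000 had values of 2.36 in LW replicate 2 and of 4.73 and 4.95 in MS. A 90-kb loop from the start of GMPPA to that same bin was called in both replicate 2 libraries (5.03 in LW versus 7.10 in MS). Between the breeds, 3 loops of GMPPA were shared, which is 30.0% of the 10 in LW and 37.5% of the 8 in MS. With 1 bin of tolerance, 4 of the LW loops had an MS partner and 3 of the MS loops an LW partner.

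BCS1L, the complex III chaperone gene, had 6 and 3 loops in LW versus 6 and 5 in MS. Its loop score was 22.8 and 18.4 in LW against 17.7 and 24.0 in MS. The breeds overlapped and the limma difference was −0.28 on the log2(score + 1) scale (SE 0.76, adjusted p = 1.00 with Benjamini-Hochberg adjustment). All 14 of its loops left from the bin at chr15:120705001-120710000, which also holds the end of ZNF142, a zinc finger gene that ends 27 bp before BCS1L starts. The loop scores of BCS1L and ZNF142 were equal in every library for this reason, and the loops of these genes cannot be told apart.

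None of the loops of BCS1L was found in all 4 libraries. A 160-kb loop to PRKAG3, the gene of a muscle subunit of the energy sensor AMP-activated protein kinase, had values of 4.55 in LW replicate 2 and of 3.29 and 3.01 in MS, and was not called in LW replicate 1. A 50-kb loop to LOC106506368, a long non-coding RNA gene, was called in LW replicate 1 (2.27) and both MS libraries (3.96 and 5.73). A 15-kb loop to a bin with ends of RNF25, a ubiquitin ligase gene, and STK36, a kinase gene, was called once in each breed (3.67 in LW versus 4.49 in MS). A 115-kb loop to USP37, a deubiquitinase gene, and CNOT9, a subunit of the deadenylase complex, was called in the replicate 1 library of each breed (2.12 in LW against 2.47 in MS). Shared loops were 4 of 9 in each breed, or 44.4%, and 7 of 9 in each breed with 1 bin of tolerance.

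**Figure D2:**
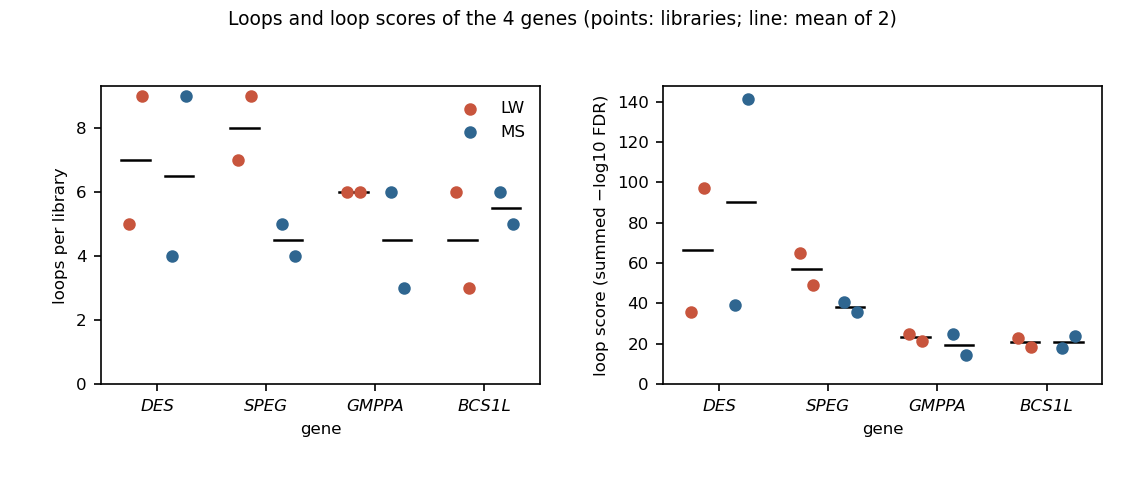
Number of loops (left) and loop score, the summed −log10 FDR (right), of the 4 genes; each point is a library, LW in red and MS in blue, and each line is the mean of the 2 libraries. The points of LW lie above those of MS for SPEG, from 49.3 against 40.6 upward, while the breeds overlap for DES, GMPPA and BCS1L.

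Loops that joined 2 of the members numbered 13, and all were within the group of DES, SPEG and GMPPA. Such loops had 1 anchor at an end of a member and the other within another member or 1 kb of it. They numbered 7 and 6 in LW versus 5 and 3 in MS. SPEG and GMPPA were joined by 8 of them, of which 7 were called in a single library. DES and SPEG were joined by 3, 55 to 75 kb long, of which the 55-kb loop described above was called in all 4 libraries. DES and GMPPA were joined by 2, the 90-kb loop of both LW libraries and an 80-kb loop of MS replicate 1 (2.36). BCS1L was joined to none of the others in any library.

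The bin at chr15:121415001-121420000 looped to all 3 genes of the group. It was singled out after its values were seen, and for lying before DES. The bin at chr15:121480001-121485000, inside SPEG, also looped to ends of all 3 genes. The singled-out bin lies 8.54 kb before DES, and no annotated gene end falls within 1 kb of it. It had 18 different loops to its right, 10 in each LW library and 8 and 9 in MS, and 12 of these reached the body or an end of DES, SPEG or GMPPA. The summed −log10 FDR of its loops was 131 and 199 in LW against 115 and 277 in MS, so the breeds overlapped here as well. Its 3 loops found in all 4 libraries were those of 10 kb to the start of DES, of 65 kb into SPEG and of 120 kb to a bin beyond GMPPA. The 120-kb loop had values of 45.4 and 34.6 in LW versus 26.5 and 25.6 in MS, the LW libraries being above the MS libraries. The 65-kb loop had values of 14.4 and 11.3 in LW against 8.17 and 6.98 in MS, in the same order of breeds, as for 22.8% of the 4632 loops that the 4 libraries share, and no test was made of single loops.

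The RNA of DES was linked to chromatin in all 4 GRID-seq libraries and was the only member RNA listed under its symbol. It was listed at chr15:121427103-121435424 on the plus strand, with 2523 and 2724 reads in LW versus 4270 and 5004 in MS. Scaled to a library total of 1000000 listed reads (RPM), these were 308 and 274 in LW against 595 and 533 in MS. Before this scaling too, the MS libraries were above the LW libraries with no overlap, as for 24.4% of the RNAs tested, counted on unscaled reads. With the quasi-likelihood test of edgeR and Benjamini-Hochberg adjustment over the 308 RNAs listed in every library, the LW minus MS log2 fold change was −0.99 (SE 0.025, adjusted p = 8.68e-06), or 1.98-fold more in MS. This was 1 of 131 RNAs higher in MS (42.5% of those tested), and 267 of the 308 (86.7%) differed in 1 direction or the other, so a call by itself did not set DES apart. By the size of the change DES was number 20 of the 308 in the direction of MS.

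On DNA, the RNA of DES stayed close to its own gene. It was listed on 53 and 80 bins of 1 kb in LW versus 45 and 44 in MS, all on chromosome 15. Bins within 10 kb of the RNA held 98.2% and 92.1% of its signal in LW against 98.8% and 97.5% in MS. The signal, a background-corrected value, peaked between 5.40 and 6.40 kb from the start of the RNA, at 6827 and 4666 in LW versus 3083 and 1998 in MS. Summed over all bins it was 92850 and 67720 in LW against 42088 and 29231 in MS, so the order of the breeds was opposite to that of the reads. Across RNAs of a library the smallest listed signal fell as the reads rose (Spearman's rho from −0.989 to −0.976 over 519 to 681 RNAs, a description), and the lists do not state how the signal was scaled. Between a low and a high percentile of the RNAs of a library, this smallest signal differed 45.4- to 57.9-fold. Multiplied by the reads of the RNA, a setting chosen after the data were seen, it differed 1.56- to 1.95-fold. With the same multiplication, in shared units, the peak of the DES RNA was 17225 and 12710 in LW against 13164 and 9996 in MS. The breeds then overlapped. Whether the scaling of the signal sets the order of the breeds was not tested. Neighbouring bins rose and fell in even steps, so the bins of 1 RNA are not separate measurements.

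LW replicate 2 stood apart in the reach of this RNA. There its last bin lay 63.6 kb past the end of the RNA, against 26.6 kb in LW replicate 1 and 19.6 kb in each MS library. The bins more than 39 kb from the start of DES were 31 in LW replicate 2 and none in the other libraries. They formed a second rise of signal inside SPEG, highest at 55.0 kb from the start of DES with a value of 170. That bin falls in the far anchor of the 55-kb loop between DES and SPEG, over whose 5 bins the RNA of DES had a signal of 832 in LW replicate 2 and was not listed in the other 3 libraries, although the loop was called in all 4 BL-HiChIP libraries. On the bin that carried the strongest DES loop, the signal of the DES RNA was 587 and 30.5 in LW versus 161 and 135 in MS. Over the body of SPEG it held 3.80% and 10.6% of its signal in LW against 3.55% and 6.26% in MS. It was not listed on any bin of the body of GMPPA.

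**Figure D3:**
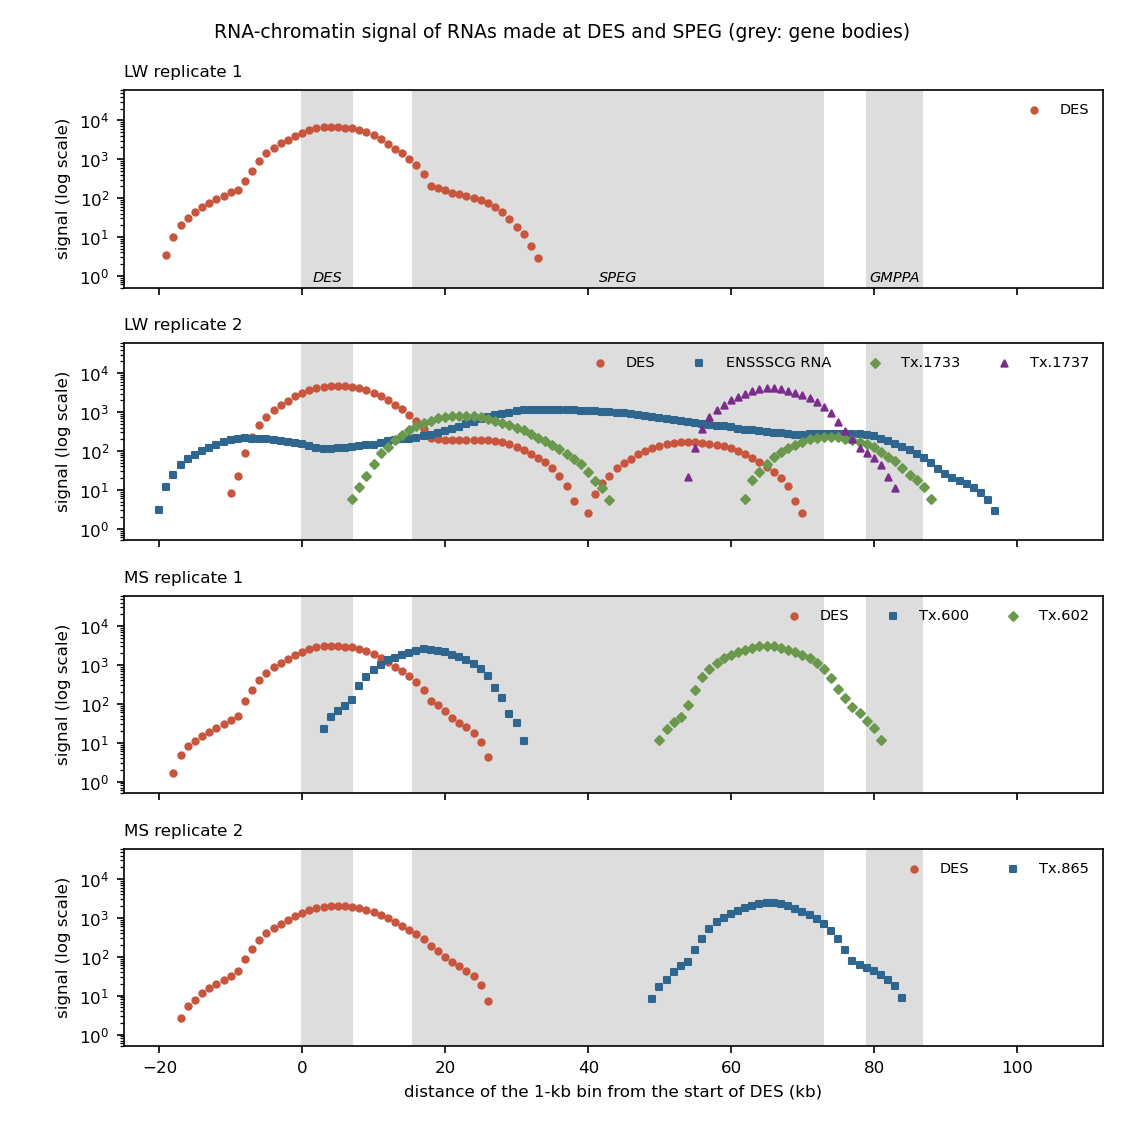
Signal of the RNAs made at DES and SPEG on 1-kb bins (log scale) against the distance of the bin from the start of DES in kb, 1 panel per GRID-seq library; grey bands are the bodies of DES, SPEG and GMPPA, and the ENSSSCG RNA is ENSSSCG00000032522. The RNA of DES peaks over its own gene in each panel and has a second rise, up to 170, in LW replicate 2.

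No RNA was listed under the name SPEG, but 6 listed RNAs overlapped the gene, all on the plus strand. LW replicate 2 listed 3 of them, ENSSSCG00000032522 with 2605 reads, Tx.1733 with 1218 reads and Tx.1737 with 661 reads. MS replicate 1 listed Tx.600 with 558 reads and Tx.602 with 548 reads, and MS replicate 2 listed Tx.865 with 765 reads. LW replicate 1 listed none, where the smallest RNA in its list had 441 reads. The Tx names are numbered apart in each list, so they do not match between libraries. Tx.1737, Tx.602 and Tx.865 started at 121490799, 121490802 and 121490800, near the end of SPEG, and thus outline nearly the same stretch. In RPM of the listed RNAs, these 3 had 66.5 (LW replicate 2), 76.4 and 81.5 (MS). Because the pieces differ from library to library, no breed difference was tested for the RNA of SPEG.

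These RNAs spread over unequal distances. Tx.1737, Tx.602 and Tx.865 kept 99.3%, 99.5% and 99.0% of their signal within 10 kb. ENSSSCG00000032522, the longest at 22.9 kb, kept 71.2% within 10 kb and was listed on 118 bins, from 43.4 kb before its start to 51.6 kb past its end, thus over DES as well as GMPPA. Tx.1733 kept 75.7% within 10 kb, with bins up to 65.7 kb past its end. Both of these wide spreads were in LW replicate 2, the library in which the RNA of DES also reached farthest. No RNA was listed for GMPPA or BCS1L in any library.

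The chromatin at the ends of DES carried mainly the RNA of DES itself. The summed signal of all RNAs on bins within 5 kb of its ends was 83722 and 60106 in LW versus 42433 and 25518 in MS. The LW libraries lay above the MS libraries, as they did for 16.7% of the 23302 genes tested. The gene's own RNA made up 99.9% and 94.9% of it in LW against 89.6% and 99.2% in MS. On the log2(signal + 1) scale the limma difference was 1.03 (SE 0.91, adjusted p = 0.656 with Benjamini-Hochberg adjustment). No gene of the 23302 was called at the adjusted threshold (percent called 0), and 3676 (15.8%) had an unadjusted p under 0.05. When each signal was multiplied by the reads of its RNA, a setting chosen after the data were seen, the difference at DES was −0.03 (SE 1.02).

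The rest of the signal at DES came mostly from its neighbour SPEG. Tx.600 had a signal of 4219 there in MS replicate 1, and ENSSSCG00000032522 had 2661 and Tx.1733 had 302 in LW replicate 2, and these RNAs all overlap SPEG. The RNA of TTN, the gene of the giant sarcomere protein titin on the same chromosome, was on the DES bins in every library, at 32.8 and 28.4 in LW versus 34.4 and 32.6 in MS. The values of TTN lay within a narrow range over the libraries and were a small part of the signal at DES.

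At the ends of SPEG, the RNA of the neighbouring DES was found in every library. The gap between these genes is 8.55 kb, so their 5-kb windows overlap and some bins count for both. The summed signal at the ends of SPEG was 15951 and 41348 in LW against 38491 and 15688 in MS. The breeds overlapped, with a high and a low library in each, and the limma difference was 0.14 (SE 1.10, adjusted p = 0.969 with Benjamini-Hochberg adjustment). The RNA of DES gave 15918 and 12776 of this signal in LW versus 7587 and 6614 in MS. It made up 99.8% of the signal in LW replicate 1, where no RNA from SPEG was listed, and 19.7% in MS replicate 1, where Tx.600 had 20125 and Tx.602 had 10743. MS replicate 2, the other low library, held Tx.865 at 9021, which was 57.5% of its signal.

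The RNA on GMPPA came mostly from RNAs overlapping SPEG in 3 of the 4 libraries. The summed signal at its ends was 23.4 and 6945 in LW against 1105 and 1275 in MS. LW held both the highest and the lowest library, and the limma difference was −1.46 (SE 2.81, adjusted p = 0.828 with Benjamini-Hochberg adjustment). It turned to 2.19 without LW replicate 1 and to 2.32 with signals multiplied by the reads of their RNA. RNAs overlapping SPEG made up 99.8% of the signal in LW replicate 2, and 97.1% and 95.1% in MS. In LW replicate 2 these were ENSSSCG00000032522 (2927), Tx.1737 (2375) and Tx.1733 (1629), and in MS they were Tx.602 (1073) and Tx.865 (1213). LW replicate 1, with no SPEG piece in its list, was the low library.

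At the ends of BCS1L the summed signal was 345 and 58.8 in LW versus 724 and 508 in MS. The MS libraries lay above the LW libraries, as they did for 20.5% of the genes tested, and the limma difference was −2.49 (SE 1.71, adjusted p = 0.656 with Benjamini-Hochberg adjustment). On the quantile-normalized scale used in that fit the values were 8.84 and 5.17 in LW against 10.3 and 8.67 in MS. There the breeds overlapped. The limma difference was −4.25 without LW replicate 1 and −0.69 without LW replicate 2, and 1.05 when signals were multiplied by the reads of their RNA. Most of the signal was the RNA of TNS1, the gene of the focal adhesion protein tensin on the same chromosome. TNS1 had 292 on these bins in LW replicate 1 and 716 and 486 in MS, and was not listed on them in LW replicate 2, the low library. The RNA of TTN had 44.6 and 39.6 in LW against 0.288 and 11.0 in MS. No RNA of DES or SPEG was listed on the bins of BCS1L.

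**Figure D4:**
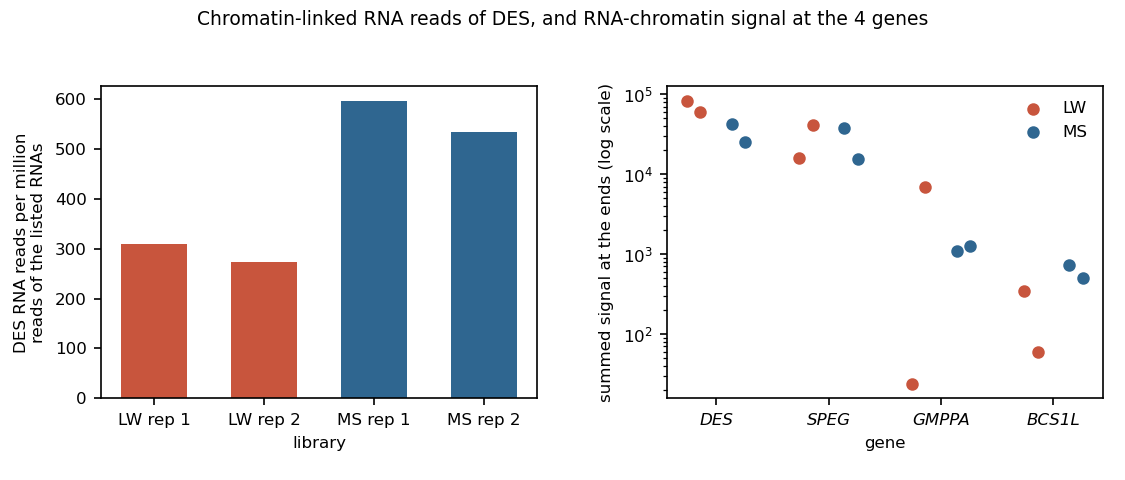
Left, RPM of the DES RNA over the listed RNAs in each GRID-seq library (1 bar per library); right, summed RNA-chromatin signal on bins within 5 kb of the ends of the 4 genes, each point a library, on a log scale. The MS bars, 595 and 533, stand above the LW bars, while at the ends of DES the LW points, 83722 and 60106, stand above the MS points.

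The wider intermediate filament and costamere list of 17 genes, DES included, held 12 genes with a loop, and none was called at the adjusted threshold. The gene past the study's own threshold (a log2 difference over 1.5 in either direction with unadjusted p under 0.05) was DMD, the dystrophin gene, with loop scores of 11.14 and 8.89 in LW versus no loop called in MS. That threshold was passed by 2.83% of all genes in the direction of LW and 2.5% in the direction of MS. The median difference of the list was 0.19, against 0.02 over all genes tested. For RNA-chromatin signal the study's threshold (a log2 difference over 2) was passed by 2 of 15 genes, both higher in MS, and by 8.28% of all genes in that direction. They were CRYAB, the gene of a small heat shock protein that protects desmin, at 189 and 168 in LW against 44364 and 40638 in MS, and SYNC, the gene of the filament protein syncoilin, with no signal listed in LW and 34.2 and 15.5 in MS. The RNA of CRYAB itself was listed only in MS, with 975 and 1010 reads.

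Reads of RNA were tested for 5 genes of that list, and all 5 were called, as 86.7% of RNAs were: 4 higher in MS, DES among them, and NEB higher in LW. FLNC, the gene of the Z-disc protein filamin C, had 8380 and 9007 reads in LW versus 15280 and 18421 in MS (log2 fold change −1.12, SE 0.020, adjusted p = 3.4e-06 by edgeR with Benjamini-Hochberg adjustment). NEB, the gene of the thin filament ruler nebulin, had 155425 and 171935 reads in LW against 82103 and 97784 in MS (0.70, SE 0.0062, adjusted p = 1.9e-06).

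The triad and myosin light chain kinase list of 19 genes, SPEG included, held 17 genes with a loop and none was called. MYLK3, the gene of a cardiac myosin light chain kinase, passed the study's threshold, with loop scores of 3.77 and 9.44 in LW versus no loop called in MS. It was the only gene of the 17 past that threshold, which 2.83% of all genes passed in the direction of LW. For RNA-chromatin signal, MYLK, the gene of the smooth muscle kinase, was past it among 18 genes, at 59.9 and 146 in LW against 9.06 and 8.83 in MS (background in the direction of LW 7.49%). Reads were tested for 9 genes, and all 9 were called, 6 higher in LW and 3 in MS, beside 86.7% of all RNAs (44.2% higher in LW and 42.5% in MS). Among them the calcium pump genes went in opposite directions. ATP2A2, of the slow-fibre pump, had 22327 and 24257 reads in LW against 10976 and 12797 in MS (log2 fold change 0.81, SE 0.016, adjusted p = 4.2e-06 by edgeR with Benjamini-Hochberg adjustment). ATP2A1, of the fast-fibre pump, had 17748 and 19200 reads in LW versus 22680 and 27137 in MS (−0.59, SE 0.014, adjusted p = 6.6e-06).

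In the GDP-mannose and dystroglycan glycosylation list of 18 genes, GMPPA included, 15 genes had a loop and none passed either threshold. MPI, the gene of the enzyme that makes mannose 6-phosphate, was among the genes of smallest unadjusted p, with loop scores of 22.2 and 18.1 in LW versus 0 and 11.2 in MS. For RNA-chromatin signal 2 of 16 genes passed the study's threshold, both higher in MS, beside 8.28% of all genes in that direction. POMGNT1, a glycosyltransferase gene of the dystroglycan pathway, was among them, with no signal listed in LW and 14.2 and 45.7 in MS. The median difference of the list was −1.33, against −0.05 over all genes. Many genes of the list had no signal in at least 1 library, where log2(signal + 1) turns small signals into large differences.

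In the list of 15 genes of complex III and its assembly, BCS1L included, 5 genes had a loop and none passed either threshold. UQCRB, a subunit of the complex, had loop scores of 18.2 and 7.95 in LW against 6.06 and 3.84 in MS, and UQCR10, another subunit, had 25.7 and 5.16 in LW versus 14.6 and 0 in MS. For RNA-chromatin signal 1 of 4 genes passed the study's threshold, UQCR10, at 2.76 in LW replicate 1, with no signal listed in LW replicate 2, and at 105 in each MS library, while 8.28% of all genes passed it in the direction of MS. No RNA of the glycosylation or complex III list was listed in all 4 libraries.

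Across the genome, the genes with the loop score pattern nearest to that of a member were found from the distance between normalized log2 scores in the 4 libraries. For DES these were LMNTD1 (distance 0.302), the proteasome activator gene PSME1 (0.388) and LOC106509068 (0.496). For SPEG they were LOC110255417 (0.167), the endocytic receptor gene LRP1 (0.184) and the nucleoside transporter gene SLC29A1 (0.314). For GMPPA they were the hedgehog transcription factor gene GLI2 (0.186), PROSER3 (0.208) and ACR (0.256). For BCS1L they were ZNF142 (0, from the shared bin), GATAD2B (0.235) and the ephrin receptor gene EPHB4 (0.240). With 4 libraries and 15430 other genes such likeness is a description only.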

How the data were processed

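H3K27ac BL-HiChIP and GRID-seq were each analysed in 4 libraries, 2 of LW and 2 of MS, grouped by the sample titles. For BL-HiChIP the authors removed the bridge linker (ChIA-PET2), aligned to Sscrofa11.1 with BWA-MEM, kept unique pairs (Pairtools) and called loops from H3K27ac peaks to all 5-kb bins with FitHiChIP in each library. The deposited value of a loop was read as its FDR, a p-value after adjustment, since the lists end just under 0.01. For GRID-seq the authors selected chromatin-enriched RNAs and built a background from non-specific contacts. The whole number per RNA in the deposited lists was taken for its count of reads. The number given for an RNA on a 1-kb bin was taken for the authors' signal after background correction, deposited from 0.02 upward. The lists have no column names, and the contact counts behind the loops and the unlisted RNAs were not analysed here. The submitters' processing notes also name a mouse build, which played no part here.

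RefSeq positions on Sscrofa11.1 gave the gene ends. RNAs listed by Ensembl ID were given symbols where the name table paired them (17 and 21 of 81 and 98 IDs in LW, 18 and 23 of 79 and 95 in MS). Repeated pairs of RNA and bin were summed (1125 to 2036 per library). An FDR of 0, found for 1 loop in each replicate 2 library, was set to the smallest positive FDR of its library. Loop scores (anchors within 1 kb of a gene end) and signals (bins within 5 kb) were quantile-normalized and compared with limma 3.58.1 on log2(value + 1) in R 4.3.3. RNA reads were compared with edgeR 4.0.16 (TMM, quasi-likelihood) over the 308 RNAs listed in every library, with DESeq2 1.42.0 as an alternative. The SE given for reads was worked back from the fold change and the F statistic of the edgeR test. Calls used a Benjamini-Hochberg adjusted p under 0.05. For a score that is no count, limma took the place of the count test named in the study's methods. The scripts were tested on simulated data. The shifts planted there for loop score and signal were far larger than the differences of the 4 genes. That test therefore does not show whether differences of their size can be found.

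The genes, gene lists and tests were chosen with earlier results of these data known. Named were the 4 genes, genes at the far anchors of loops called in at least 2 libraries, the leading RNAs on member bins, list genes past the study's threshold or otherwise the 2 of smallest p, and the 3 nearest loop score patterns; some genes that this rule names are not reported here. Alternatives were leaving out each library, the replicate block, other windows, FDR limits, pseudocounts, filters and scalings. The number of reads behind a loop is unknown. No sequence of the locus was used.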

Additional observations from a re-analysis of the deposited data

How the results depend on the processing

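The 4 genes stayed uncalled for loop score and RNA-chromatin signal, and DES stayed called for RNA reads, under each alternative run. The sign of small differences did not hold. For loop score (log2, LW minus MS), SPEG was −0.082 with anchors within 5 kb, BCS1L was 0.16 with loops of FDR at most 0.001, and GMPPA was 0.27 without quantile normalization. Without that normalization the median over all genes tested was higher as well, at 0.384 in place of 0.0174. With each library left out in turn, DES ranged from −1.29 to 0.17 and GMPPA from −0.35 to 0.24 for loop score, and GMPPA from −5.29 to 2.19 and SPEG from −0.55 to 0.79 for signal. A breed left with 1 library is assumed to vary like the other. The loop score of DES was 0.11 when LW replicate 1 was left out and 0.17 when MS replicate 2 was. The signal of GMPPA was 2.19 without LW replicate 1, and that of SPEG was −0.52 when LW replicate 2 was left out and −0.55 when MS replicate 2 was. The signal of SPEG was −0.13 over the gene body and 5 kb around it, and that of DES was −0.63 without its own RNA. Signals multiplied by the reads of their RNA, chosen after seeing the data, gave −0.028 for DES, 2.32 for GMPPA and 1.05 for BCS1L, and 2535 genes called, 1003 higher in LW and 1532 in MS. The cause of these shifts was not tested, except that a lower number of loops follows from a stricter limit. Library totals in place of TMM called 167 RNAs in place of 267, with DES at −0.95 and a larger SE of 0.14.

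Mean loops per library with anchors within 5 kb rose from 7 to 12 and from 6.5 to 9 for DES in LW and MS, from 8 to 12 and from 4.5 to 10 for SPEG in LW and MS, and from 6 to 8 and from 4.5 to 7.5 for GMPPA in LW and MS, and joining loops from 13 to 23. With FDR at most 0.001 they were 4 for DES in MS, 3.5 for SPEG in MS, 3.5 and 2 for GMPPA in LW and MS, and 3.5 for BCS1L in MS.

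The replicate block changed no call of the 4 genes. It called 278 RNAs in place of 267 and gave −0.99 for the reads of DES, with the 4 loop score differences unmoved. The labels do not say what libraries of the same number have in common, and with 2 pairs they were not taken as paired. The correlation of their deviations from the breed means was 0.354 over 15431 genes for loop score, −0.00621 over 23302 genes for signal and 0.939 over 308 RNAs for reads. With 2 libraries per breed no single value can pass 0.05 in an exact permutation test. The depth behind a loop or a bin signal is unknown. Small breed differences in loop score or signal were not detectable here, and differences that were large on the fitted scale also went uncalled. By limma with Benjamini-Hochberg adjustment, DMD had a loop score difference of 2.99 (adjusted p = 0.804). CRYAB had a signal difference of −8.17 (adjusted p = 0.125). DMD had no loop called in MS, and the RNA of CRYAB was missing from the LW lists. Neither is therefore shown to be a breed difference that the test missed.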
